A study of Homo sapiens with 6 samples.

Results

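Keratins and vimentin build the intermediate filaments of the cytoplasm, and 10 of their genes were followed here by gene symbol, out of 17789 symbols in the expression tables. They were the simple-epithelial keratins KRT7, KRT8, KRT18 and KRT19, the stratified-epithelial keratins KRT4, KRT5, KRT6A, KRT6B and KRT17, and VIM, which encodes vimentin. Each symbol came from a single locus and was listed in all 6 libraries. The study compared FOXD3 knockdown cells, 3 libraries, with control cells labelled wild type, 3 libraries. The label on every cell sample is A549, an established line from a human lung carcinoma, grown in medium with serum. FOXD3, a forkhead transcription factor, was targeted by a commercial pool of small interfering RNAs carried by a lipid reagent, and its reduction was examined at 72 h. What was given to control wells is missing from the labels. They also do not state whether a group's libraries are separate cultures, and p-values therefore reflect library-to-library spread alone, which may be technical.

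A keratin filament is assembled from pairs of an acidic type I chain and a basic type II chain. KRT8 with KRT18 is the first pair of simple epithelia, joined by KRT7 and KRT19 in lung and glandular cells. KRT5 with its type I partners marks basal cells, KRT4 with KRT13 marks the moist stratified lining of mouth and esophagus, and KRT6A, KRT6B and KRT17 are known from hair follicles, wounds and squamous tumors. Vimentin is the type III filament of mesenchymal cells and of carcinoma cells that have taken on mesenchymal features.

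KRT6A and KRT6B are neighbors on chromosome 12 and near copies of each other, which bears on every value given for them. Their coding sequences, both 1695 bases in the GENCODE 29 transcripts, differed at 43 positions, an identity of 97.5%. The 90 coding bases from 656 to 745, counted from the A of the start codon, are shown because no window of that length held more differences than these 10, written in capitals.
KRT6A: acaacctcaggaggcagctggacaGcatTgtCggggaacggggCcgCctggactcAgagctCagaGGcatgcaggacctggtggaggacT
KRT6B: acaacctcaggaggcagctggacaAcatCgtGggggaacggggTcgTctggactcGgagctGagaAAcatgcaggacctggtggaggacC
The longest stretch shared by both ran for 269 bases. Of all 50-base windows of each transcript, 39.1% for KRT6A and 47.1% for KRT6B also occurred in another gene, mainly KRT6C, so reads from these genes can be assigned to the wrong copy. The same held for 41.3% of windows of KRT8 and 31.8% of KRT18, where the copies were mostly processed pseudogenes, of which GENCODE 29 names 50 for KRT8 and 68 for KRT18. The share was 16.0% for KRT17 and 3.99% for KRT5, stood at 1.79% for KRT19 and 0.997% for KRT7, and no window of KRT4 or VIM was shared.

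Values are FPKM, fragments per kilobase of transcript per unit of sequencing depth, as the authors deposited them, so levels can be set side by side between genes. The files used here hold no read counts. Depth was put roughly, from what 1 fragment is worth in genes without introns, at 6540000 to 7240000 fragments per library. It is a median over 26 to 40 genes a library, kept only within a window of 5000000 to 12000000. The estimate could not leave that window and depends on it, so fragment numbers derived from it give an order of size only. FOXD3 itself (chromosome 1, 63788730 to 63790797, hg19) was listed at 0.0749 FPKM in knockdown replicate 2 and was not listed in knockdown replicates 1 and 3. Control replicates 1, 2 and 3 had 0.152, 0.291 and 0.134 FPKM of it. The groups did not overlap, but FOXD3 was very low in both, averaging 0.025 FPKM in knockdown and 0.192 FPKM in control libraries. By exact permutation of the labels, two-sided, p was 0.1, the lowest value possible with 3 libraries a group. Values this low would rest on very few fragments, and fragment numbers were not derived for FOXD3. The lack of overlap therefore does not establish how far FOXD3 was reduced.

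The cell label was checked against its markers. Epithelial genes were high, with EPCAM, an epithelial adhesion protein, at 159 FPKM in knockdown and 114 FPKM in control libraries on average. AKR1B10 and AKR1C1, reductases known to be abundant in A549, averaged 752 and 651 FPKM in knockdown libraries, against 391 and 431 FPKM in control libraries. CDKN2A, the tumor suppressor gene known to be deleted on both copies in A549, went against the label, at 128 ± 1.55 FPKM in knockdown and 154 ± 0.814 FPKM in control libraries (SD, n = 3 each). Its deleted neighbors were also detected, CDKN2B at 8.41 and MTAP at 12.2 FPKM in knockdown libraries, and at 16.1 and 10.5 FPKM in control libraries. A549 is also known as a line with abundant vimentin, whereas VIM ranked 10859 of 17789 symbols by mean FPKM. Whether the cells are A549 was not tested.

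The question put to each member was whether it differed between knockdown and control libraries. Knockdown cells carried more KRT8 and KRT18, several times more KRT4 and KRT5, and more KRT6A, and they carried less KRT6B, KRT17 and VIM. KRT7 was slightly lower, and KRT19 did not pass the test. Each difference is knockdown minus control after log2(FPKM + 1), a scale that shrinks changes of low genes. Standard errors and Benjamini-Hochberg adjusted p-values came from limma, fitted on the 13340 genes whose mean reached 0.5 FPKM. All 10 members passed that filter, and each also reached 0.5 FPKM in both group means. At an adjusted p under 0.05, 9 members were called, 5 higher and 4 lower. Over all tested genes 63.5% were called, 25.6% higher and 37.9% lower, so being called does not set the members apart. Their median log2 change was 0.23, against -0.09 over all tested genes. The groups did not overlap in 9 of the 10 members and in 69.1% of all tested genes. After quantile normalization the split over all genes became 4304 higher and 3909 lower, against 3417 and 5050 as deposited.

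**Figure D1:**
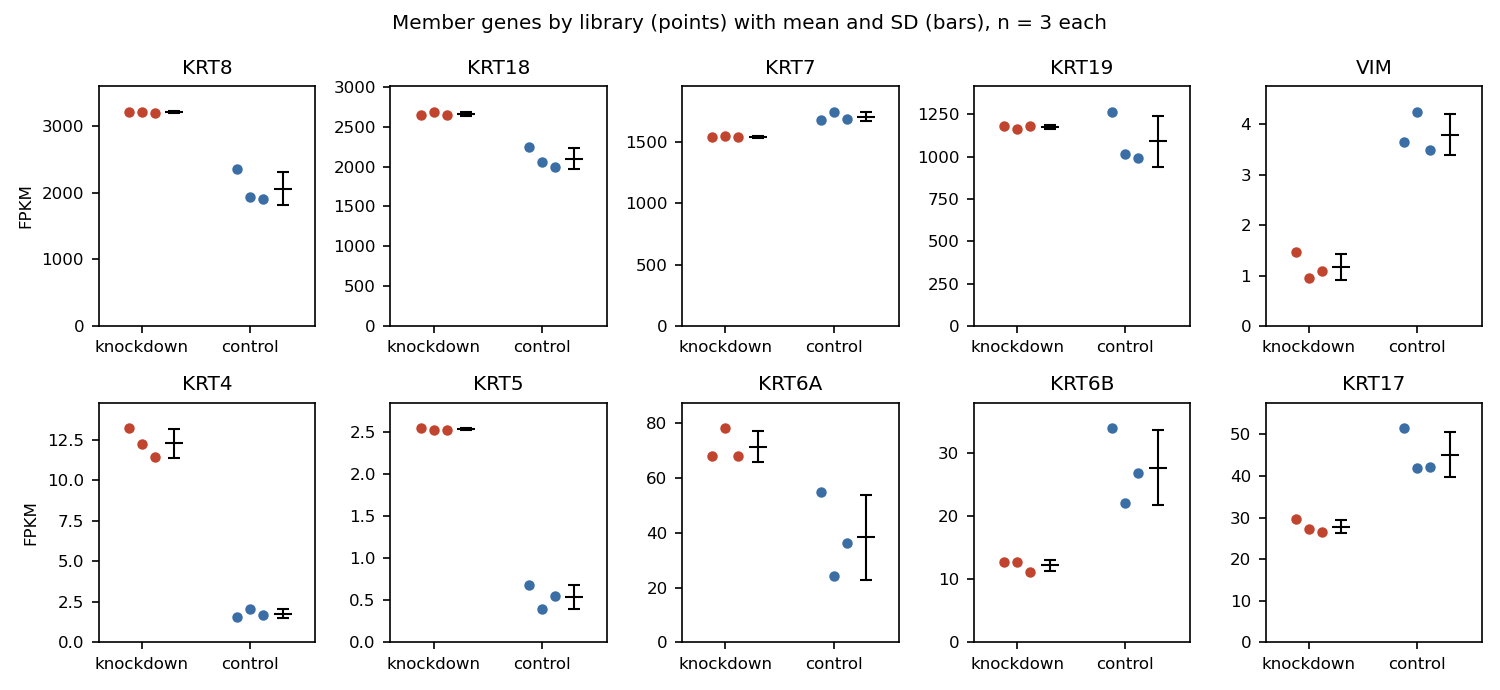
FPKM of the 10 member genes in each library, with the 3 knockdown libraries left of the 3 control libraries, and black bars for mean and SD. Every axis starts at 0 and has its own scale; KRT19 is the panel in which the groups overlap, and for KRT6A the control points spread from 24.1 to 54.8 FPKM.

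The simple-epithelial keratins were by far the most abundant. KRT8, the type II chain of the first simple-epithelial pair (chromosome 12, 53290971 to 53298868, hg19), measured 3209.8, 3211.3 and 3188.1 FPKM in knockdown replicates 1, 2 and 3. Control replicates 1, 2 and 3 had 2351.0, 1926.7 and 1900.4 FPKM. Every knockdown library was above every control library, and the coefficient of variation was 0.404% in knockdown and 12.3% in control libraries. KRT8 rose by 0.64 (SE 0.077; limma, adjusted p = 0.000158), a 1.56-fold higher mean, and ranked 26 of all symbols by mean FPKM. KRT18, its type I partner (chromosome 12, 53342655 to 53346685, hg19), had 2648.9, 2690.6 and 2650.3 FPKM in knockdown libraries, against 2243.5, 2063.5 and 1994.8 FPKM in control libraries. The groups again did not overlap, and KRT18 rose by 0.34 (SE 0.048; limma, adjusted p = 0.000391), and by 0.55 after quantile normalization. GENCODE 29 annotates KRT8 and KRT18 as overlapping on opposite strands over 525 exon bases. The loci given above for KRT8 and KRT18 do not overlap, and whether reads from that stretch entered either value is not known. The strand setting is not given in the sources used here, so such reads cannot be told apart.

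KRT7 and KRT19 moved little. KRT7, a type II keratin of glands, ducts and lung (chromosome 12, 52626954 to 52642709, hg19), had 1540.9, 1554.7 and 1539.7 FPKM in knockdown libraries and 1686.0, 1749.7 and 1691.8 FPKM in control libraries. All knockdown values were below all control values, by a narrow margin. KRT7 fell by 0.15 as deposited (SE 0.034; limma, adjusted p = 0.00632), but the call was lost after median scaling, with a log2 change of -0.06 (limma, adjusted p = 0.232), and after quantile normalization, with -0.10 (limma, adjusted p = 0.0772). The antisense gene KRT7-AS overlaps 282 exon bases of KRT7, and reads from there cannot be told apart either. KRT19, the smallest type I keratin (chromosome 17, 39679869 to 39684641, hg19), had 1178.5, 1164.0 and 1181.6 FPKM in knockdown libraries. Its control libraries had 1264.8, 1014.9 and 992.0 FPKM, so control replicate 1 was above all knockdown libraries and the other controls were below them. The log2 change was 0.12 (SE 0.085; limma, adjusted p = 0.263). Without control replicate 1 it was 0.23 (SE 0.029; limma, adjusted p = 0.000466), so that library decided the call.

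Ratios between members within a library do not change when a library is multiplied by a single factor. The ratio of KRT8 to KRT18 was 1.21, 1.19 and 1.20 in knockdown libraries, against 1.05, 0.934 and 0.953 in control libraries. The pair was thus close to even in controls and tilted to the type II chain in knockdown cells, without overlap. KRT8 relative to KRT7 averaged 2.07 ± 0.00901 in knockdown and 1.21 ± 0.163 in control libraries (SD, n = 3 each). Summed over the 9 keratins, type II chains stood to type I chains as 1.25 ± 0.00379 in knockdown and 1.19 ± 0.0247 in control libraries. Together the 9 keratins held 1.44% ± 0.0177 of the FPKM total of a knockdown library and 1.16% ± 0.0785 of a control library. These sums and ratios are descriptions and carry no test.

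**Figure D2:**
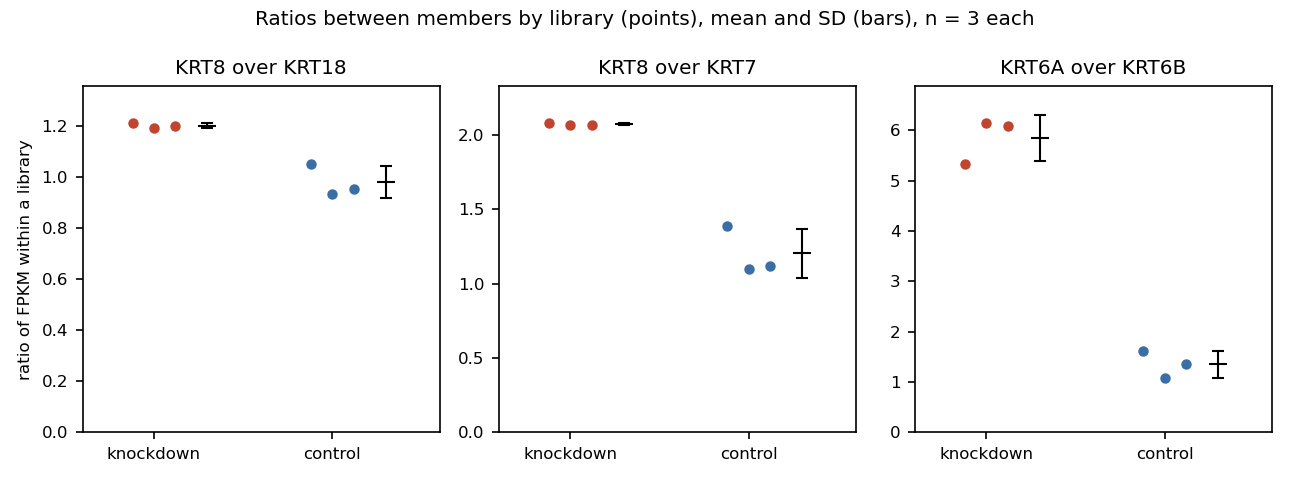
Ratio of FPKM between pairs of members within each library, knockdown left of control, with mean and SD as bars and each axis starting at 0. KRT8 exceeded KRT18 in all knockdown libraries, and the ratio of KRT6A to KRT6B lay between 5.32 and 6.14 in knockdown and between 1.09 and 1.61 in control libraries.

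Among the stratified keratins, KRT4 had the largest log2 change, and KRT5 was the lowest in level in both groups. KRT4, the type II keratin of non-cornified stratified linings (chromosome 12, 53200327 to 53207900, hg19), measured 13.2, 12.2 and 11.4 FPKM in knockdown replicates 1, 2 and 3. Control replicates had 1.58, 2.07 and 1.69 FPKM, far below every knockdown library. KRT4 rose by 2.26 (SE 0.095; limma, adjusted p = 1.1e-06), and 99.4% of tested genes changed by less in absolute terms. KRT5, the basal-cell type II keratin (chromosome 12, 52908359 to 52914243, hg19), had 2.55, 2.53 and 2.53 FPKM in knockdown libraries and 0.678, 0.401 and 0.547 FPKM in control libraries. It rose by 1.20 (SE 0.11; limma, adjusted p = 3.06e-05), a 4.68-fold higher mean. With a pseudocount of 0.1 in place of 1 its log2 change was 2.06. At the rough depth its values correspond to 41.9 to 46.4 fragments in knockdown and 6.7 to 11.9 in control libraries. For KRT4 the same conversion gave 205.5 to 232.2 fragments in knockdown and 28.1 to 35.2 in control libraries.

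KRT4 and KRT5 rose together, and the RefSeq table of promoters (GRCh38.p14) held both, beside KRT8 and VIM among the 10 members. The 250 bases before each start are shown with the first transcribed base in capitals, KRT4 at chr12:52814116-52814366 and KRT5 at chr12:52520394-52520644, both on the minus strand.
KRT4: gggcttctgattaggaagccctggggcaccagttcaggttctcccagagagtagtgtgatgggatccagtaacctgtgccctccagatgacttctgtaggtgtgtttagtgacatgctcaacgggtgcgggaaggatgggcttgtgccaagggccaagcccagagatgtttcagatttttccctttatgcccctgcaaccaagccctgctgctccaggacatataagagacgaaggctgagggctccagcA
KRT5: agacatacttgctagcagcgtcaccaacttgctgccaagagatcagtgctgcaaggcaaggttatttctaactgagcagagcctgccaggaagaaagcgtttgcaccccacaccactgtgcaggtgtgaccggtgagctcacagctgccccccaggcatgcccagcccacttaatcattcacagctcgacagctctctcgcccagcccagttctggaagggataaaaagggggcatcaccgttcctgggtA
The forkhead core TGTTTAC, the AP-1 site TGACTCA and the TATA box letters TATAAA were searched on both strands from 250 bases before to 50 after the start. None of these exact letters occurred in that window of KRT4, KRT5, KRT8 or VIM. The KRT8 start in that set, chr12:52926469, lies well upstream of the KRT8 locus measured here, after allowing for the shift between builds. Its window therefore does not cover the start of that locus. Near matches were not searched, such as tgtttag in KRT4 for the forkhead core. Others were tataag in KRT4 and ataaaa in KRT5 shortly before the start. Lack of a forkhead site, an AP-1 site or a TATA box is therefore not shown. The exact forkhead, AP-1 and TATA letters occurred in 3.42%, 4.95% and 11.5% of 35116 promoters of that length, in that order.

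KRT6A and KRT6B, nearly the same gene by sequence, went opposite ways. KRT6A (chromosome 12, 52880958 to 52887181, hg19) had 68.1, 78.2 and 68.2 FPKM in knockdown libraries, against 54.8, 24.1 and 36.3 FPKM in control libraries. The groups did not overlap, yet the controls varied by 40.3% around their mean and the knockdown libraries by 8.11% (coefficient of variation). Of 9170 genes averaging 5 FPKM or more, 99.4% had a smaller spread among controls than KRT6A on the log2 scale. For KRT6B that share was 98.1%, so both copies varied widely among controls. KRT6A rose by 0.95 (SE 0.24; limma, adjusted p = 0.00872), a call lost under robust estimation of the variances (limma, adjusted p = 0.0558). KRT6B (chromosome 12, 52840435 to 52845910, hg19) had 12.8, 12.7 and 11.2 FPKM in knockdown libraries and 34.0, 22.2 and 26.9 FPKM in control libraries. It fell by 1.10 (SE 0.14; limma, adjusted p = 0.000199), with no overlap between groups. KRT6A exceeded KRT6B in all 6 libraries, by 5.32, 6.14 and 6.09 times in knockdown libraries and by 1.61, 1.09 and 1.35 times in control libraries. KRT6C, the near-identical copy beside them, averaged 0.721 ± 0.0971 FPKM in knockdown and 0.678 ± 0.200 FPKM in control libraries (SD, n = 3 each) and was not called. How the authors' software divided reads among these copies is not given in the sources used here.

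KRT17, a type I keratin of hair follicles and injured epidermis (chromosome 17, 39775692 to 39780882, hg19), had 29.6, 27.2 and 26.6 FPKM in knockdown libraries. Control libraries had 51.5, 41.9 and 42.1 FPKM, all higher. KRT17 fell by 0.67 (SE 0.086; limma, adjusted p = 0.00023). KRT16, the type I keratin usually found with KRT6 and KRT17, averaged 22.8 ± 0.829 FPKM in knockdown and 24.1 ± 2.97 FPKM in control libraries (SD, n = 3 each), a log2 change of -0.07 (SE 0.084; limma, adjusted p = 0.486).

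Set against the simple-epithelial keratins, the stratified keratins were a small fraction in both groups. The 4 simple keratins summed to 8586.1 ± 31.2 FPKM in knockdown and 6959.8 ± 515 FPKM in control libraries. The 5 stratified keratins summed to 126 ± 6.43 FPKM in knockdown and 114 ± 26.5 FPKM in control libraries (SD, n = 3 each). Their share of the 9-keratin total was 1.45%, 1.52% and 1.38% in knockdown libraries, within the 1.85%, 1.32% and 1.61% of control libraries. What differed was the makeup of that share. KRT6A gave 56.5% ± 2.48 of the stratified sum in knockdown and 32.9% ± 5.98 in control libraries. KRT4 gave 9.73% ± 0.660 in knockdown and 1.66% ± 0.590 in control libraries. KRT17 gave 20.5% to 23.5% in knockdown and 36.2% to 46.2% in control libraries, and KRT6B gave 9.69% ± 0.406 in knockdown and 24.4% ± 0.605 in control libraries. The sign of the difference in share was not stable: it was -0.144 percentage points with KRT17 and 0.171 without it. Without KRT17 the share was 1.13% ± 0.0682 in knockdown and 0.964% ± 0.239 in control libraries. Both differences were smaller than the SD among controls, which was 0.266 with KRT17. No other stratified keratin was left out in this way, and whether the change of sign is particular to KRT17 was not tested.

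**Figure D3:**
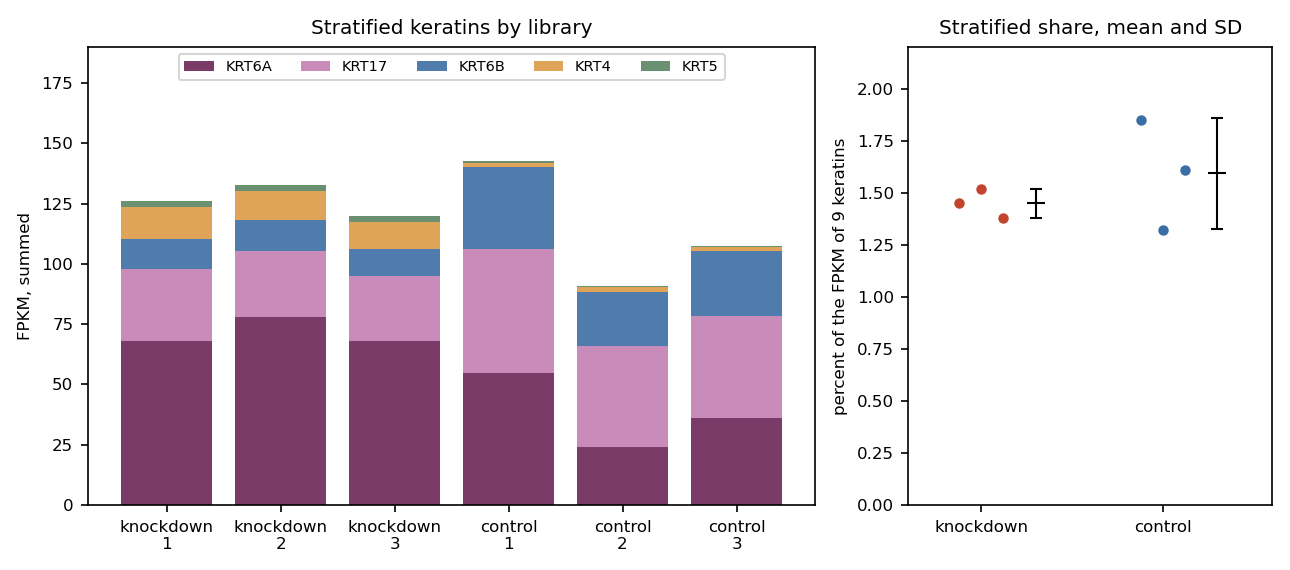
Left, FPKM of the 5 stratified keratins stacked by library; right, their share of the FPKM of the 9 keratins, with mean and SD, knockdown left of control. The stacks differ in makeup, with KRT6A and KRT4 larger in knockdown libraries and KRT17 and KRT6B larger in control libraries, while the shares overlap at 1.38% to 1.52% and 1.32% to 1.85%.

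Vimentin was scarce and fell further. VIM (chromosome 10, 17270258 to 17279592, hg19) measured 1.46, 0.959 and 1.08 FPKM in knockdown replicates 1, 2 and 3. Control replicates had 3.65, 4.25 and 3.49 FPKM, and no value overlapped. VIM fell by 1.15 (SE 0.12; limma, adjusted p = 7.08e-05), a mean 3.25-fold higher in control libraries. The rough depth puts these values at 13.4 to 21.3 fragments in knockdown and 53.2 to 59.9 in control libraries. KRT18 exceeded VIM by 1810.9 to 2805.8 times in knockdown libraries and by 486 to 615 times in control libraries. The antisense genes VIM-AS1 and AL133415.1 overlap 641 and 619 exon bases of VIM in GENCODE 29, and without a strand setting their reads there cannot be told apart from those of VIM.

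Markers of other cells that carry vimentin were low, but their sums lay near the level of VIM itself, 3.49 to 4.25 FPKM in control libraries. Of 8 fibroblast markers 1, COL1A1, was tested, and it was not called (log2 change -0.22; limma, adjusted p = 0.0681). COL1A2 and COL3A1 averaged at most 0.0672 FPKM in either group, and DCN and LUM were listed in no library. The 8 markers summed to 2.96 to 3.63 FPKM in knockdown and 3.66 to 4.63 FPKM in control libraries. The pan-leukocyte gene PTPRC averaged 0.194 FPKM in knockdown and 0.227 FPKM in control libraries, and the 6 leukocyte markers summed to 1.56 to 2.07 FPKM in knockdown and 2.86 to 4.23 FPKM in control libraries, most of it CD14. The 5 endothelial markers summed to 1.87 to 2.18 FPKM in knockdown and 2.61 to 3.49 FPKM in control libraries, nearly all of it CDH5, and PECAM1 averaged 0.105 FPKM in knockdown and 0.0708 FPKM in control libraries. Each of these sums was lower in knockdown libraries, as VIM was, and the fibroblast sum was nearly all COL1A1. Their part in the change of VIM was not tested. In bulk libraries, fewer cells of a type and less RNA per cell cannot be told apart.

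**Figure D4:**
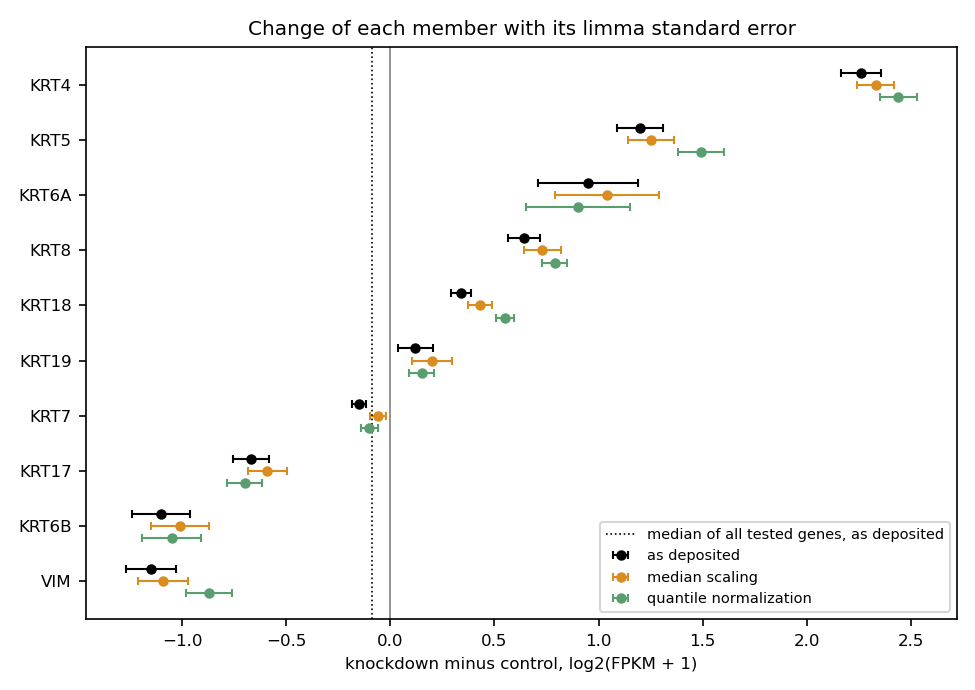
Change of each member between groups (horizontal, knockdown minus control, in log2 of FPKM + 1), with limma standard errors, as deposited and after median scaling and quantile normalization. KRT4 lies highest and VIM lowest as deposited, and KRT7 moves from -0.15 to -0.06 with median scaling; the dotted line marks the median of all tested genes.

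The authors' deposited table, which gives a value per group, had 5 of the 10 members at a false discovery rate under 0.05, against 22.1% of its 12275 genes. In the authors' deposited table KRT4, KRT5 and KRT6A were higher, with log2 fold changes of 2.93, 2.40 and 1.04, and KRT6B and VIM lower, with -1.03 and -1.57. The authors' deposited table put KRT8 at 0.79 (false discovery rate 0.167), KRT17 at -0.54 (0.0605), KRT18 at 0.50 (0.377), KRT19 at 0.27 (0.507) and KRT7 at 0.01 (0.986). Its KRT7 value has the opposite sign to the change fitted here. In the authors' deposited table KRT8 and KRT18 share a locus, 53290971 to 53346685 on chromosome 12.

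Control replicate 1 was the highest control library for 7 of the 10 members, KRT4, KRT7 and VIM being the exceptions, and the coefficient of variation was higher among control than knockdown libraries for 9 members, VIM being the exception. Over all tested genes, control replicate 1 was the highest control in 34.3%, and the coefficient of variation was higher among control libraries in 61.0% of the 13300 genes with a value in both groups.

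Of 46 other keratin genes, 32 were listed in any library and 14 were tested. Among these, 5 were higher and 5 lower in knockdown libraries, and 4 were not called. Both directions were thus equally frequent, beside 25.6% higher and 37.9% lower over all tested genes. KRT13, the type I partner of KRT4, had 30.3, 30.3 and 28.5 FPKM in knockdown libraries, against 16.3, 10.7 and 11.9 FPKM in control libraries, and rose by 1.16 (SE 0.13; limma, adjusted p = 0.000112). KRT15, a basal-cell type I keratin, rose by 0.69 (SE 0.063; limma, adjusted p = 3.79e-05), to 17.1 ± 0.241 FPKM in knockdown libraries, against 10.2 ± 0.634 FPKM in control libraries. KRT3, a type II keratin of the cornea, had 2.90 ± 0.246 FPKM in knockdown and 0.502 ± 0.112 FPKM in control libraries and was called higher. KRT34, a hair keratin, fell by 1.79 (SE 0.18; limma, adjusted p = 5.81e-05), to 0.858 ± 0.0569 FPKM in knockdown libraries, against 5.56 ± 1.81 FPKM in control libraries. KRT81 and KRT86, also hair keratins, were called lower, with log2 changes of -1.0 and -0.77. KRT80 fell by 0.17 (SE 0.051; limma, adjusted p = 0.0188), with 47.9 ± 0.863 FPKM in knockdown and 54.1 ± 2.80 FPKM in control libraries. KRT14, the usual partner of KRT5, was not called, at 0.827 ± 0.355 FPKM in knockdown and 0.667 ± 0.252 FPKM in control libraries (SD, n = 3 each throughout).

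**Figure D5:**
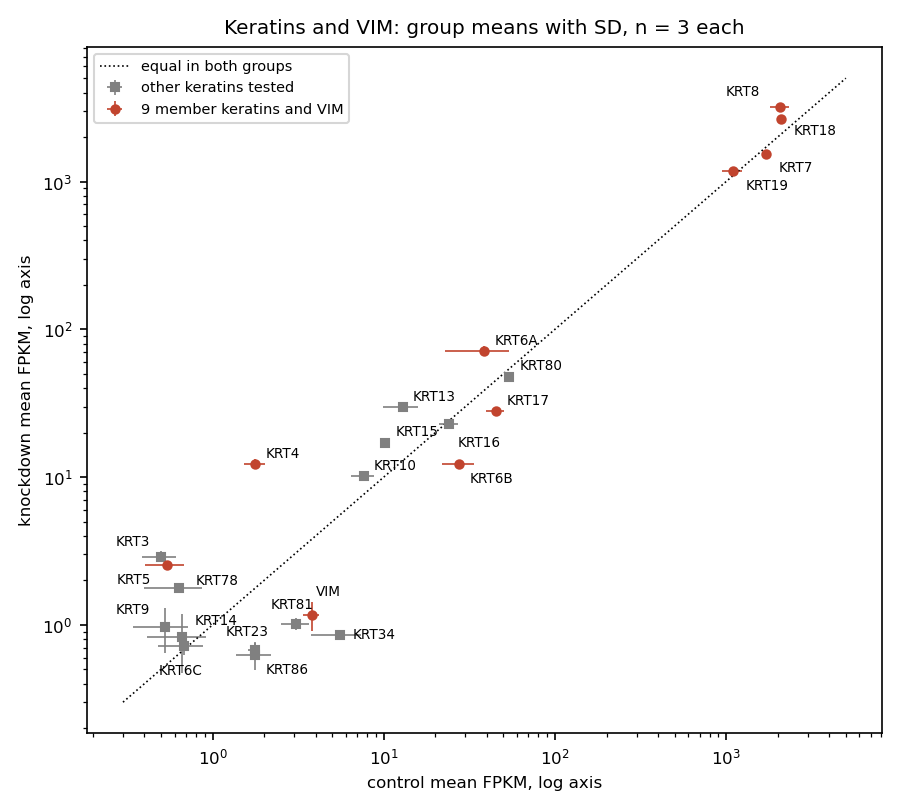
Mean FPKM of each tested keratin and VIM in knockdown libraries (vertical, log axis) against control libraries (horizontal, log axis), with SD over n = 3 libraries each. KRT4, KRT3 and KRT5 lie farthest above the line of equal values, and KRT34, VIM, KRT81, KRT86, KRT23 and KRT6B lie well below it.

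Lists of other filament genes and of genes for filament anchors are read beside the 25.6% higher and 37.9% lower over all tested genes and their median log2 change of -0.09. Of 9 tested type III to VI genes, 6 were higher and 1 lower, with a median log2 change of 0.66. LMNB1 and LMNB2, which form the nuclear lamina, averaged 70.8 and 77.2 FPKM in knockdown libraries, against 29 and 44.9 FPKM in control libraries. INA, a neuronal filament protein, averaged 44.5 FPKM in knockdown and 19.5 FPKM in control libraries. Of 9 genes for plakins and keratin linkers, 6 were higher and 1 lower, with a median of 0.28. PLEC, the cytolinker plectin, averaged 44.1 ± 1.85 FPKM in knockdown and 29.3 ± 1.5 FPKM in control libraries. Of 13 desmosome genes 7 were tested, 3 were higher and 4 were not called, with a median of -0.03. PKP3, a desmosomal plaque protein, averaged 52.6 FPKM in knockdown and 31.3 FPKM in control libraries, while DSP, the plakin that ties keratin to desmosomes, averaged 48.7 ± 1.39 FPKM in knockdown and 43.4 ± 0.306 FPKM in control libraries.

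Of 18 tested genes of squamous differentiation, 6 were higher and 8 lower, with a median log2 change of -0.01, near the shares of 25.6% and 37.9% over all tested genes. TGM1, the transglutaminase of the cornified envelope, averaged 2.99 FPKM in knockdown and 10.5 FPKM in control libraries. TP63, the basal-cell transcription factor, was low, at 0.933 FPKM in knockdown and 0.477 FPKM in control libraries, and was called higher by 0.39 (SE 0.11; limma, adjusted p = 0.0163). Of 12 tested mesenchymal genes other than VIM, 1 was higher and 8 lower, with a median of -0.57, against the same shares and a median of -0.09 over all tested genes. COL6A2, a collagen VI chain, averaged 1.38 FPKM in knockdown and 16.4 FPKM in control libraries. Of 18 tested epithelial genes, 4 were higher and 10 lower, with a median of -0.24. CDH1, E-cadherin, averaged 41.3 FPKM in knockdown and 48.2 FPKM in control libraries.

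The genes whose profiles over the 6 libraries lay closest to a member were found by Euclidean distance on log2(FPKM + 1), centered on the control mean, among the same 9170 genes. For KRT4 they were SPP1, DIO2 and GAL, at distances of 0.237, 0.576 and 0.605. For KRT6B they were CEBPD, IL29 and FLJ23867, at 0.211, 0.221 and 0.226. For KRT8 they were POLR2E, NDUFB9 and EFTUD2, at 0.0560, 0.0765 and 0.0773. For KRT6A the closest, MSMB, LDHA and THOP1, lay at 0.419, 0.522 and 0.562.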

How the data were processed

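RNA was sequenced from 3 knockdown and 3 control libraries. The authors deposited FPKM per gene and library. The submitters' processing notes list, without roles, Cufflinks 2.0.2 and Cuffdiff, TopHat2 2.0.12 and Bowtie, and build hg19. The authors' deposited comparison table holds, per gene, the authors' p-value with its false discovery rate and their log2 fold change, from a value per group.

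From these files, FPKM was summed over the rows of a symbol (331 of 17789 symbols had several loci), and a symbol not listed in a library was set to 0. Genes averaging 0.5 FPKM or more were fitted on log2(FPKM + 1) with limma 3.58.1 in R 4.3.3 (knockdown minus control, no covariates, variance trend, two-sided, Benjamini-Hochberg over all tested genes, threshold 0.05). The fit was tested on simulated data. FOXD3 was tested by exact permutation.

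Depth was estimated roughly from the FPKM steps of intronless genes of at least 800 bases. Sequences were read from GENCODE 29 (GRCh38) and RefSeq (GRCh38.p14), and a planned protein comparison is not given here.

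The members and gene lists were chosen with earlier results of these data known. From each list, up to 3 called genes with the largest absolute change and at least 5 FPKM in the higher group were eligible to be named. KRT3, KRT6C, KRT14, KRT16, KRT81, KRT86, DSP, TP63, CDH1 and the marker genes named singly fall outside that rule and were chosen after their values were seen. Replicate numbers follow accession order and only name libraries.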

Additional observations from a re-analysis of the deposited data

How the results depend on the processing

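The 16 alternatives were pseudocounts of 0.1 and 0.5, no filter, a filter at 5 FPKM, median, quantile and equal-total scaling, limma without trend or with robust estimation, the largest row of a symbol, and leaving out each of 6 libraries. No member changed sign under any of them, and the calls that changed were those of KRT6A, KRT7 and KRT19 given above. KRT5 and VIM were below the 5 FPKM filter and have no value under it. With that filter 3295 genes were called lower. Leaving out 1 library gave 7536 to 8469 genes called (2961 to 3406 higher, 4519 to 5063 lower), 9 to 10 members called (5 to 6 higher, 4 lower) and a difference in stratified share of -0.28 to -0.0147 percentage points. Without KRT17 in the sums that difference was 0.171. The median change of all genes was -0.087 as deposited, -0.014 with median scaling and 0.025 with quantile normalization. Over the alternatives KRT6A lay between 0.67 and 1.24 (limma, adjusted p = 0.000413 to 0.0558), KRT7 between -0.16 and -0.06 (limma, adjusted p = 0.00327 to 0.232) and KRT19 between 0.05 and 0.23 (limma, adjusted p = 0.000466 to 0.624). The causes were not tested. No paired analysis was possible because the labels give no replicate numbers. By the rough depth, which depends on its window, KRT5 in control and VIM in knockdown libraries rest on few fragments, which would limit their precision.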
